A study of Mus musculus with 24 samples.

Results

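The cortical nuclei other than microglia were compared between *Pdgfb* ret/ret mice and *Pdgfb* ret/wt controls. From the 12 cortical libraries, 1 per mouse and 6 per genotype, barcodes were kept that had more than 500 and fewer than 7000 detected genes, less than 20% mitochondrial unique molecular identifiers (UMIs) and at least 2000 UMIs. Nuclei with 6 or more UMIs summed over the microglial genes *Csf1r*, *P2ry12*, *Cx3cr1* and *Siglech* were dropped. This left 37836 nuclei of 109705 cortical barcodes, out of 237224 barcodes in the 24 libraries of the series, and 1396 nuclei were dropped by the microglial limit. The counts of the kept nuclei were summed per library, so that the mouse was the replicate. The other 12 libraries came from the deep brain of the same mice, of which 109322 nuclei passed the same limits.

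All mice were of the strain labelled B6.Pdgfbtm3Cbet. The mutants carried the *ret* allele on both copies of *Pdgfb*, and the controls carried it on 1 copy, so no group without the allele entered the comparison. All 6 mutants and 5 controls were female, and control 6 was male. Brains were perfused and divided into a cortical piece, which as the study describes it took in cerebral cortex and hippocampus, and deep brain regions. The labels give 5 months and 3, 0 and 18 days as the ages of mice 1, 2 and 3 in both genotypes. Mice 4 of both genotypes were 4 months and 24 days old, mutant 5 and control 6 were 4 months and 7 days, and mutant 6 and control 5 were 4 months and 9 days. The allele is constitutive, so every cell type of the mutants carried it.

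PDGF-B is a growth factor that endothelial cells secrete and that recruits pericytes, the mural cells of capillaries, through the receptor PDGFRB. The *ret* allele encodes PDGF-B without its retention motif, the stretch that holds the factor at the endothelial surface, and mice with this allele on both copies have few pericytes and a leaky blood-brain barrier. In this mutant calcified vessels form in the deep brain, while the cortex is free of them. The cortical comparison thus asks what differs between the genotypes away from the calcifications, as far as the dissection kept the regions apart.

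The kept nuclei held between 13036997 and 91303788 UMIs per library, with a median of 8044.5 to 15506.5 UMIs per nucleus. Mutants 5 and 6 and control 5 gave 9263, 5915 and 9518 kept nuclei, while the other 9 libraries gave 864 to 2462. Before the limit of 2000 UMIs, the median nucleus held 804 to 8054 UMIs, and the limit removed between 9.61% and 85.0% of the nuclei that had passed the limits on genes and mitochondrial share. Any 2 cortical libraries shared at most 1.88% of the barcodes of the smaller library. Summed markers of cortical layer neurons stood at 2521 to 3102 CPM (counts per 1e6 counts of the scaled library) over the 12 libraries, those of striatal projection neurons at 1345 to 2702 CPM, and those of dentate gyrus and other hippocampal neurons at 608 to 1070 CPM. One cluster without a class name, led by *Ptprc*, *Cd74* and *Dock2* and with markers of several classes, held 1939 nuclei, 38.8% of them from mutant 1, and nuclei without a class name made up 33.8% of mutant 1. Another cluster without a class name held 1614 nuclei, 35.4% of them from 1 library. Among its leading genes were *Oxt*, *Avp*, and *Prkcd*, *Lef1* and *Slc17a6* of the list of thalamic and midbrain neurons used here. The part of deep brain tissue in the cortical pieces was not tested.

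*Pdgfb* itself is a weak check of the genotype labels. The libraries were read from the 5′ end of transcripts, while the deleted motif lies at the 3′ end of the coding sequence. Only counts per gene were used, so whether any reads cover the altered part was not examined. *Pdgfb* stood at 6.43 CPM in the lowest mutant, 9.08 at the median and 13.3 in the highest, against 9.29, 10.6 and 13.3 CPM in controls. The groups overlapped, and the log2 fold change of mutant over control was −0.20 ± 0.16 (SE), with an adjusted p of 0.753 by edgeR's quasi-likelihood test with Benjamini-Hochberg adjustment, which is the test behind every adjusted p of a gene given here. The receptor *Pdgfrb* ranged from 2.96 CPM through a median of 4.797 to 7.24 CPM in mutants and from 3.74 through 8.14 to 8.79 CPM in controls. Its log2 fold change was −0.66 ± 0.23, with an adjusted p of 0.333.

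Most genes of pericytes and smooth muscle had values below 0 in mutants, and none passed the test. Of 18 genes of pericytes and smooth muscle, 13 were expressed at a level that could be tested, none passed in either direction, 11 had a log2 fold change below 0 and the median was −0.44, beside −0.01 over all genes. *Rgs5*, a regulator of G protein signalling that marks pericytes, ranged from 0.231 through 0.374 to 1.71 CPM in mutants and from 0.731 through 3.63 to 5.89 CPM in controls, a log2 fold change of −2.31 ± 0.54 with an adjusted p of 0.134. The summed level of 9 mural markers, a shorter list used to name clusters, was 12.7 to 21.1 CPM in mutants and 23.1 to 44.1 CPM in controls. Every mutant lay below every control, and 0.802% of single genes tested had ranges apart, a share not counted for sums. A second fit took the replicate number as a block, since deviations of same-numbered cortices correlated at 0.19 to 0.85, although mutants 2, 4 and 6 correlated best with another number. With this block 3 of 15 tested genes of this list passed and were lower in mutants, namely *Rgs5*, *Abcc9* and *Vtn* (adjusted p 0.0208, 0.0376 and 0.0217). In that fit 1.65% of all genes passed, 1.26% as higher and 0.386% as lower. In summed counts, fewer cells of a type and less RNA per cell cannot be told apart. With the block, 7 of 9 tested members lay below 0 in glutamatergic neurons (median −0.43) and 3 of 3 in oligodendrocytes (−0.83). In GABAergic neurons 3 of 5 did, and in oligodendrocyte precursor cells 2 of 3 lay above 0, all without a call. In astrocytes *Pdgfrb* passed as lower and *Atp13a5* as higher among 3, beside 1.06% and 1.43% of all genes. The part of these classes in the sum was not tested.

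No gene of the endothelial lists passed the test. Of 22 tested genes of endothelial identity and barrier function 14 lay above 0 and the median was 0.09. Of 13 tested genes of endothelial activation and sprouting the median was 0.10, with −0.13 to 0.28 over the settings tried. Of the 9 tested markers of endothelial cells 7 lay above 0, with a median of 0.40 that ranged from 0.12 to 0.66 over the settings. *Vwf*, which encodes von Willebrand factor, stood at 1.11, 3.13 and 4.62 CPM (lowest, median and highest) in mutants and 0.2996, 0.727 and 1.76 CPM in controls, with a log2 fold change of 1.80 ± 0.42 and an adjusted p of 0.135. With the block *Vwf* and *Apln*, a ligand made by sprouting endothelium, passed as higher (adjusted p 0.0294 and 0.0441), beside 1.26% of all genes. *Apln* also passed as higher with the block within astrocytes, beside 1.43% of all genes, so its level in the sum is not endothelial alone. None of the 22 tested genes of basement membrane and fibrillar matrix passed, with a median of 0.01, and none of the 14 tested genes of familial brain calcification and the PDGF family, with a median of −0.08.

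Across the summed cortical nuclei the genotypes differed in few genes. Of 17584 genes tested, 19 passed an adjusted p of 0.05, which is 0.108% of them. In mutants 17 were higher (0.0967%) and 2 were lower (0.0114%), and 1579 genes had an unadjusted p under 0.05. All 19 had levels that did not overlap between the genotypes, which held for 141 genes, or 0.802%, of those tested. DESeq2 called 224 genes on the same counts, and the fit with the replicate block called 307, among them all 19. The count rested on single libraries. It rose to 33 without mutant 1 or without mutant 5, and fell to 6 without mutant 2, 6 without mutant 3, 7 without control 1, 5 without control 2, 6 without control 3 and 5 without control 5. Among mice 1 to 3 alone 86 genes passed, and among mice 4 to 6 alone none did, with 478 genes at an unadjusted p under 0.05 there.

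Of the called genes that code for protein, the one with the largest log2 fold change was *C4b*, which encodes complement component C4, a protein of the classical pathway that tags surfaces for removal. *C4b* (chr17:34728380-34743882, minus strand, GRCm38) stood at 10.4 CPM in the lowest mutant, 17.5 at the median and 44.1 in the highest. In controls the values were 0.899, 2.99 and 3.96 CPM. Every mutant lay above every control, and the level was 8.72-fold higher (log2 fold change 3.12 ± 0.40, adjusted p 0.00719). It passed in all 12 fits that left out 1 library. At a minimum of 4000 UMIs per nucleus no gene passed, so that all 19 lost their call, and *C4b* stood at 3.25 with an adjusted p of 0.159. Its log2 fold change was 3.28 among mice 1 to 3 and 2.76 among mice 4 to 6, where the adjusted p was 0.235. The neighbouring copy *C4a*, whose sequence is nearly the same so that reads can be split between them, had a log2 fold change of −0.02 ± 0.20 and an adjusted p of 0.990.

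**Figure D1:**
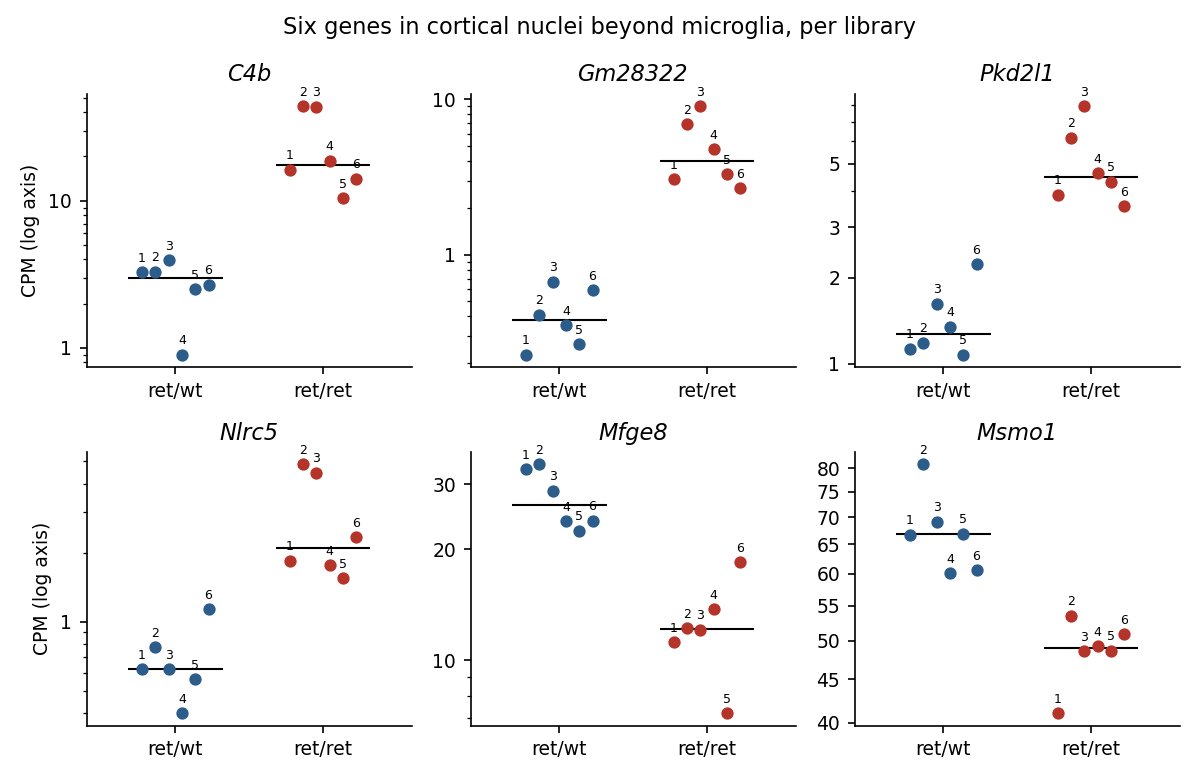
Levels in CPM (log axis) of genes that differed between the genotypes in the summed cortical nuclei, 1 point per library, numbered by mouse, with a line at the median of each group of 6. For *C4b* the mutants lie between 10.4 and 44.1 CPM and the controls between 0.899 and 3.96 CPM, and for *Mfge8* the order is turned, with mutants at 7.19 to 18.5 CPM and controls at 22.4 to 33.9 CPM.

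The genes *Mfge8* and *Msmo1* fell. *Mfge8* (chr7:79133768-79149060) encodes a secreted protein that binds phosphatidylserine on dying cells and bridges them to phagocytes. Its level was 7.19, 12.2 and 18.5 CPM in mutants and 22.4, 26.3 and 33.9 CPM in controls, lowest, median and highest. The fall was 2.21-fold (log2 fold change −1.14 ± 0.18, adjusted p 0.0307), and the 2 ranges did not meet. *Msmo1* (chr8:64718139-64733792), an enzyme of cholesterol synthesis that removes methyl groups from sterols, stood at 41.1, 49.0 and 53.5 CPM in mutants and 60.1, 66.8 and 80.8 CPM in controls. It fell by 0.47 on the log2 scale (SE 0.08, adjusted p 0.0437). *Mfge8* lost its call in 6 of the 12 fits without 1 library and *Msmo1* in 8, each with the same sign.

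Further protein-coding genes rose by smaller amounts. *Pkd2l1*, a cation channel of the polycystin family, was at 3.56, 4.48 and 7.94 CPM in mutants and 1.08, 1.27 and 2.22 CPM in controls (log2 fold change 1.81 ± 0.23, adjusted p 0.00719). *Prr5l*, which encodes a partner of the kinase complex mTORC2 and was used here as an oligodendrocyte marker, was at 144, 174 and 291 CPM against 73.1, 93.7 and 131 CPM (0.98 ± 0.17, adjusted p 0.0491). For both, the lowest mutant stood above the highest control. *Arhgef10*, an exchange factor for the GTPase RhoA, rose by 0.57 ± 0.09 (adjusted p 0.0223), *Mpzl1*, a membrane protein of the family of myelin protein zero, by 0.45 ± 0.07 (adjusted p 0.0286) and *Rtkn2*, a rhotekin, by 0.70 ± 0.12 (adjusted p 0.0439). *Fgd3*, an exchange factor for Cdc42, rose by 0.69 ± 0.12 (adjusted p 0.0444), *Kazn*, a protein of cell junctions, by 0.45 ± 0.06 (adjusted p 0.0114) and *Clmn*, calmin, by 0.40 ± 0.06 (adjusted p 0.0307). When each library was given the same mixture of cell classes, the log2 fold change of *Prr5l* was 0.40 with an adjusted p of 0.271, that of *Kazn* was 0.35 with 0.101, and those of *C4b* and *Mfge8* were 2.86 and −1.09, both past the threshold. In that setting *Pkd2l1* at 1.19 and *Msmo1* at −0.48 also passed, while *Clmn* stood at 0.13, *Arhgef10* at 0.27, *Mpzl1* at 0.30, *Rtkn2* at 0.34 and *Fgd3* at 0.45, none of them past the threshold. When 1 library was left out, *Pkd2l1* and *Kazn* passed in all 12 fits, whereas *Arhgef10* lost its call in 5, *Clmn* in 6, *Mpzl1* and *Fgd3* in 7, *Rtkn2* in 8 and *Prr5l* in 9.

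*Nlrc5*, the transactivator of MHC class I genes, was at 1.55, 2.09 and 4.85 CPM in mutants and 0.400, 0.622 and 1.13 CPM in controls. No mutant reached down to the controls, and *Nlrc5* rose by 1.98 ± 0.34 (adjusted p 0.0439). It lost its call in 8 of the 12 fits without 1 library, and stood at 1.38, not past the threshold, at an equal mixture of classes. *Mesp2*, a transcription factor of somite formation, was at under 1 CPM in every library, with 0.681, 0.844 and 0.996 CPM in mutants and 0.400, 0.436 and 0.495 CPM in controls (0.93 ± 0.17, adjusted p 0.0491), and lost its call in all 12 fits without 1 library and, at 0.85, at the equal mixture.

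The remaining 6 genes that rose were long non-coding RNAs. *Gm28322* on chromosome 1 (50904444 to 50905918, plus strand), with 2.68, 4.03 and 9.07 CPM in mutants and 0.227, 0.380 and 0.668 CPM in controls, had the smallest p of all genes and a log2 fold change of 3.58 ± 0.37 (adjusted p 0.00189). The 6 mutants together held 890 of its UMIs and the 6 controls 72. *4930420G21Rik* on chromosome 16 rose by 1.37 ± 0.24, *Gm36356* on chromosome 7 by 1.48 ± 0.22, and *A230001M10Rik* on chromosome 3 by 1.21 ± 0.20. *Gm43242*, at 1.66 ± 0.22, lies within *A230001M10Rik* on the same strand, so reads of the pair cannot be told apart where they overlap. *Gm50323*, an antisense RNA that rose by 1.26 ± 0.20, lies 33.4 kb from *Pkd2l1* on chromosome 19. At an equal mixture of classes *Gm28322* (3.02) and *4930420G21Rik* (0.82) passed, and *Gm43242* (1.12), *Gm36356* (0.91), *Gm50323* (0.73) and *A230001M10Rik* (0.68) did not. *Gm28322* and *Gm43242* passed in all 12 fits without 1 library, while *Gm36356* lost its call in 4, *Gm50323* in 7 and *A230001M10Rik* and *4930420G21Rik* in 8. The 19 genes lay on 12 chromosomes, and none lay on chromosome 15, which holds *Pdgfb*. Within 20 Mb of *Pdgfb* 0 of 405 tested genes passed, with 43 of them, or 10.6%, at an unadjusted p under 0.05, beside 8.91% on other chromosomes.

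The 19 genes were then followed through cell classes, which were clusters of nuclei named from their markers. Nuclei fell into 16980 glutamatergic neurons, 7759 GABAergic neurons, 5494 oligodendrocytes, 1290 oligodendrocyte precursor cells (OPCs), 1626 astrocytes, 174 endothelial cells, 384 fibroblasts and 45 ependymal and choroid plexus cells, beside 4084 nuclei without a class name. The oligodendrocytes, 1 cluster, met 10 of 10 oligodendrocyte markers, and the astrocytes, also 1 cluster, met 10 of 10 astrocyte markers. The class of GABAergic neurons was not cortical interneurons alone. A cluster of 3061 of its nuclei was led by *Rarb*, *Rgs9* and *Drd2* of striatal projection neurons. Others were led by *Cpa6*, *Pbx3* and *Frmd7* (1264 nuclei) and by *Drd3*, *Stac* and *Gpr149* (118 nuclei). The class called OPCs was not OPCs alone. A cluster of 922 of its nuclei met 9 OPC markers and 0 oligodendrocyte markers, while the other 368 nuclei met 9 markers of each class, were led by *9630013A20Rik*, *Tns3* and *Gpr17*, with *Bcas1* and *Enpp6* of newly formed oligodendrocytes also among the leading genes, and 32.6% of them were called doublets. No cluster was named mural cells, and a cluster of 164 nuclei called fibroblasts met 9 mural, 9 fibroblast and 8 endothelial markers. The class called endothelial cells was mixed as well. A cluster of 49 of its nuclei, 55.1% from 1 library, also met 10 GABAergic and 10 oligodendrocyte markers. Another of 37 also met 9 fibroblast, 10 oligodendrocyte and 10 astrocyte markers. In oligodendrocytes 17 of the 19 genes could be tested, 9 passed and all 17 had the sign they had in the sum. In astrocytes 2 of 8 tested genes passed, *Clmn* and *Mfge8*. Since these nuclei are part of the sum, the classes locate the differences and do not repeat them.

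Oligodendrocytes had 86 genes past the threshold among 10142 tested, or 0.848%, with 65 higher (0.641%) and 21 lower (0.207%) in mutants. Oligodendrocytes form the myelin sheath. DESeq2 called 168 genes and the replicate block 491 (4.39%), 294 higher (2.63%) and 197 lower (1.76%), including all 86. The count was 49 without mutant 2, 50 without mutant 3, 153 without mutant 6, 44 without control 2, 42 without control 3 and 49 without control 4. The oligodendrocyte class held between 221 and 1423 nuclei in each mutant and between 177 and 821 in each control.

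In oligodendrocytes *C4b* stood at 157 CPM in the lowest mutant, 196 at the median and 451 in the highest, against 8.01, 16.2 and 31.5 CPM in controls. This was 13.9-fold higher (log2 fold change 3.80 ± 0.33, adjusted p 3.7e-06). *Gm28322* was at 40.9, 65.2 and 86.4 CPM against 5.06, 6.68 and 12.5 CPM (2.98 ± 0.25, adjusted p 3.7e-06). *Rora*, a nuclear receptor of the ROR family, was at 281, 349 and 404 CPM against 93.6, 119 and 154 CPM (1.5 ± 0.13, adjusted p 4.4e-06). For each of the 3 genes the lowest mutant lay well above the highest control. They were chosen by their small p, and the share of all genes with ranges apart is not given for this class. In the sum of all classes *Rora*, which neurons also express, had a log2 fold change of 0.21 ± 0.08 with an adjusted p of 0.397.

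The genes that fell in oligodendrocytes were led by *Bfsp2*, an intermediate filament protein first known from the lens, *Txnip*, an inhibitor of thioredoxin and of glucose uptake, and *Prrt1*, a partner of glutamate receptors. *Bfsp2* was at 48.8, 65.4 and 82.6 CPM in mutants and 113, 127 and 162 CPM in controls (−1.0 ± 0.13, adjusted p 0.000272). *Txnip* was at 3.86, 6.62 and 10.0 CPM against 17.8, 24.6 and 32.5 CPM (−1.78 ± 0.23, adjusted p 0.000380), and *Prrt1* at 52.5, 66.4 and 70.4 CPM against 89.9, 102 and 111 CPM (−0.65 ± 0.10, adjusted p 0.00348). The ranges of the genotypes were apart for all 3, which were likewise chosen by their small p.

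Other genes that rose in oligodendrocytes, chosen after their values were seen, were *Alk*, a receptor tyrosine kinase (2.64 ± 0.24), *Tmem132d*, a membrane protein of oligodendrocytes (1.80 ± 0.18), and the calcium-dependent secretion activators *Cadps2* (1.04 ± 0.11) and *Cadps* (1.26 ± 0.14). They also included *Cacna1a*, the pore of P/Q-type calcium channels (1.41 ± 0.18), *Nmnat2*, an enzyme of NAD synthesis in axons (1.40 ± 0.18), *H2-D1*, an MHC class I heavy chain with near copies in the genome (1.55 ± 0.27), and *Parp12*, an interferon-induced ADP-ribosyltransferase (1.30 ± 0.26). *Alk* was at 99.1, 130 and 170 CPM in mutants and 8.90, 16.0 and 40.3 CPM in controls. *Kcna1*, a potassium channel subunit, fell by 0.60 on the log2 scale (SE 0.11, adjusted p 0.0107). Several of these genes are also expressed by neurons. In the oligodendrocyte class the summed markers of glutamatergic neurons stood at 722 to 835 CPM in mutants and 709 to 964 CPM in controls, and those of GABAergic neurons at 2637 to 4301 CPM and 2542 to 3524 CPM, so both overlapped between the genotypes. Gene by gene, 7 of 9 tested markers of GABAergic neurons lay below 0 in oligodendrocytes, with a median of −0.67 and no call. With the replicate block 8 of 10 lay below 0, and *Gad1*, *Slc32a1*, *Vip* and *Sst* passed as lower, beside 1.76% of all genes. The 10 tested markers of glutamatergic neurons had a median of 0.05 and no call. With the block 12 were tested, *Hs3st4* passed as higher and *Slc17a7* as lower, beside 2.63% and 1.76% of all genes. The part of neuronal RNA in the differences of the oligodendrocyte class was not tested.

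**Figure D2:**
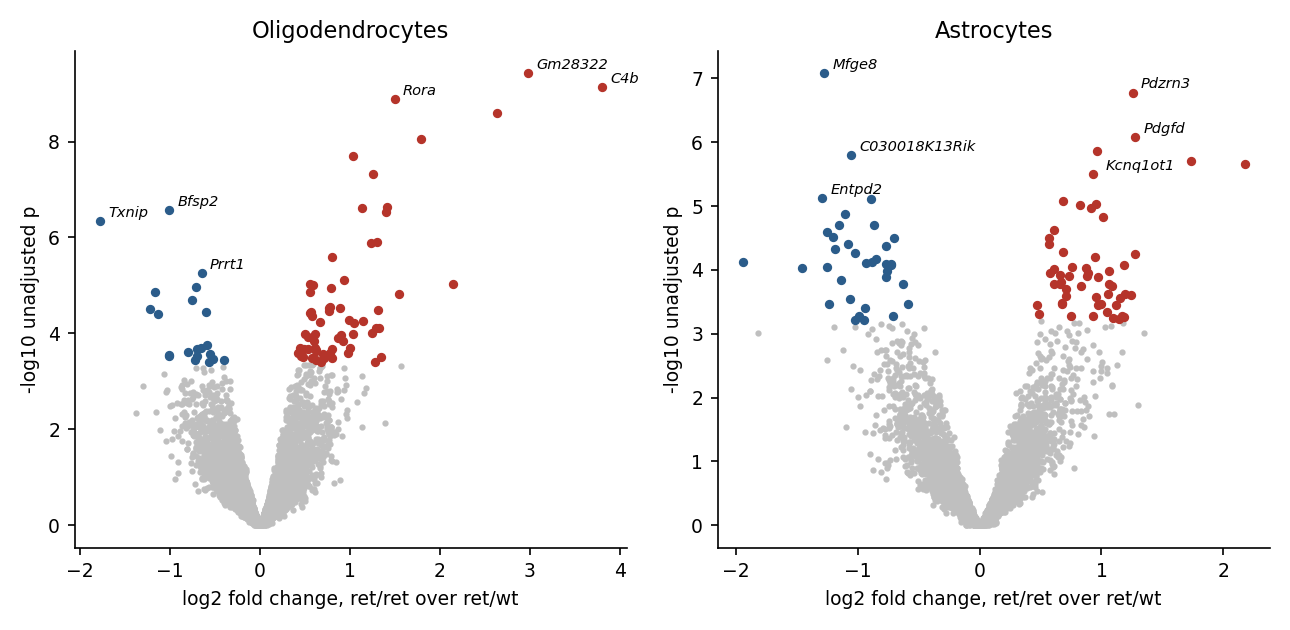
Log2 fold change of mutant over control (horizontal axis) against −log10 of the unadjusted p (vertical axis) for every gene tested in cortical oligodendrocytes (left, 10142 genes) and astrocytes (right, 7307 genes), with genes past an adjusted p of 0.05 in colour. In oligodendrocytes 65 genes are higher and 21 lower, with *C4b* farthest to the right among the called genes, and in astrocytes 55 are higher and 35 lower, with *Mfge8* at the top.

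Astrocytes, which wrap the vessels with their endfeet, had 90 called genes of 7307 tested, or 1.23%. In mutants 55 were higher (0.753%) and 35 lower (0.479%). DESeq2 called 120 genes and the replicate block 223 (2.5%), 128 higher (1.43%) and 95 lower (1.06%), including all 90, and the count was 56 without mutant 5 and 140 without mutant 6. *Mfge8* was at 237, 384 and 490 CPM in mutants and 809, 841 and 1175 CPM in controls, a fall of 1.28 on the log2 scale (SE 0.16, adjusted p 0.000607). No mutant came near the lowest control, in a gene chosen by its small p. The long non-coding RNA *C030018K13Rik* was at 92.2, 110 and 193 CPM against 248, 262 and 280 CPM (−1.05 ± 0.16, adjusted p 0.00225), and *Entpd2*, an enzyme that splits extracellular ATP, at 34.0, 46.4 and 72.4 CPM against 83.0, 108 and 173 CPM (−1.29 ± 0.22, adjusted p 0.00540).

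The 3 genes that rose with the smallest p in astrocytes were *Pdzrn3*, a ubiquitin ligase with PDZ domains, *Pdgfd*, a ligand of PDGFRB, and *Kcnq1ot1*, an imprinted antisense RNA. *Pdgfd* was at 186, 230 and 335 CPM in mutants and 73.9, 88.8 and 149 CPM in controls (1.28 ± 0.18, adjusted p 0.00203). *Pdzrn3* was at 149, 222 and 257 CPM against 58.0, 92.8 and 107 CPM (1.26 ± 0.16, adjusted p 0.000608). *Kcnq1ot1* was at 326, 430 and 569 CPM against 195, 209 and 257 CPM (0.96 ± 0.14, adjusted p 0.00225). For all 3, chosen by their small p, the lowest mutant exceeded the highest control.

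Called genes that were picked out after their values were seen add to the account of astrocytes. *Gfap*, the intermediate filament of reactive astrocytes, was at 168, 217 and 353 CPM in mutants and 103, 117 and 166 CPM in controls, and rose by 0.94 ± 0.19 (adjusted p 0.0149). *A2m*, a protease inhibitor, was at 34.2, 46.8 and 95.9 CPM against 6.03, 9.37 and 16.0 CPM (2.18 ± 0.33, adjusted p 0.00225), and *Csf1*, the growth factor that keeps microglia alive, at 86.6, 98.3 and 177 CPM against 46.6, 61.8 and 69.3 CPM (0.83 ± 0.18, adjusted p 0.0217). *Slc4a4*, a bicarbonate transporter used here as an astrocyte marker, rose by 0.57 ± 0.11 (adjusted p 0.00996). *Kcnd2*, a potassium channel, fell by 0.77 ± 0.16 in astrocytes (adjusted p 0.0155) and rose by 0.78 ± 0.17 in oligodendrocytes (adjusted p 0.0394), and the difference between the classes was not tested. *Slc7a11*, the cystine and glutamate exchanger, fell by 0.59 ± 0.14 (adjusted p 0.0340). Genes of other cell types were also read in the astrocyte class. There 17 of 21 tested genes of synaptic transmission lay below 0 with a median of −0.18, 3 of 4 of striatal neurons with −0.70 and 5 of 7 markers of glutamatergic neurons with −0.19, and the summed glutamatergic markers stood at 1942 to 2629 CPM in mutants and 2294 to 2847 CPM in controls. All 9 tested oligodendrocyte markers lay above 0 with a median of 0.45, and 5 of 7 OPC markers with 0.52. None of these markers passed, *Grin1* of the synaptic list did as lower, and the part of RNA from other cells in the astrocyte results was not tested. *C4b* in astrocytes was at 71.7, 92.7 and 267 CPM against 6.44, 72.0 and 103 CPM, with overlap, a log2 fold change of 0.85 ± 0.34 and an adjusted p of 0.331.

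Neurons and OPCs gave few calls. In glutamatergic neurons 1 of 15553 genes passed (0.00643%), *C4b*, at 0.849, 1.46 and 2.78 CPM in mutants and 0.0935, 0.133 and 0.275 CPM in controls (3.39 ± 0.40, adjusted p 0.00557). In this class controls 1 to 4 and 6 held 10445509 to 14381379 UMIs over all genes, so their *C4b* levels rest on few UMIs each. DESeq2 called 10 genes, the replicate block 9 (0.0544%), of which 6 were higher (0.0362%) and 3 lower (0.0181%), and no gene passed without control 5. Summed oligodendrocyte markers had a median over mutants of 298 CPM in glutamatergic neurons and of 30110 CPM in oligodendrocytes, while *C4b* had medians of 1.46 and 196 CPM, and the part of free RNA and of mixed droplets in the neuronal level was not tested. In that class the sum of these markers was 193 to 374 CPM in mutants and 191 to 321 CPM in controls. All 10 had a log2 fold change above 0, with a median of 0.40, 5 at an unadjusted p under 0.05 and no call, and 14 of the 16 myelin genes lay above 0 there, with a median of 0.28. In the class of GABAergic neurons, which includes striatal neurons, edgeR called 0 of 13578 genes (0%), with 1209 at an unadjusted p under 0.05. DESeq2 called 34 there and the replicate block 120 (0.826%), 72 higher (0.496%) and 48 lower (0.33%), and 1 gene passed without control 5. In the OPC class, mixed as given above, edgeR called 0 of 8062 genes (0%), with 442 at an unadjusted p under 0.05, while DESeq2 called 2 and the replicate block 1, which was lower (0.0104%). There 2 genes passed without control 1 and 1 without control 5. Fibroblasts and ependymal cells were not compared, and endothelial cells were not tested, since only 3 libraries of each genotype held at least 10 of their nuclei.

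**Figure D3:**
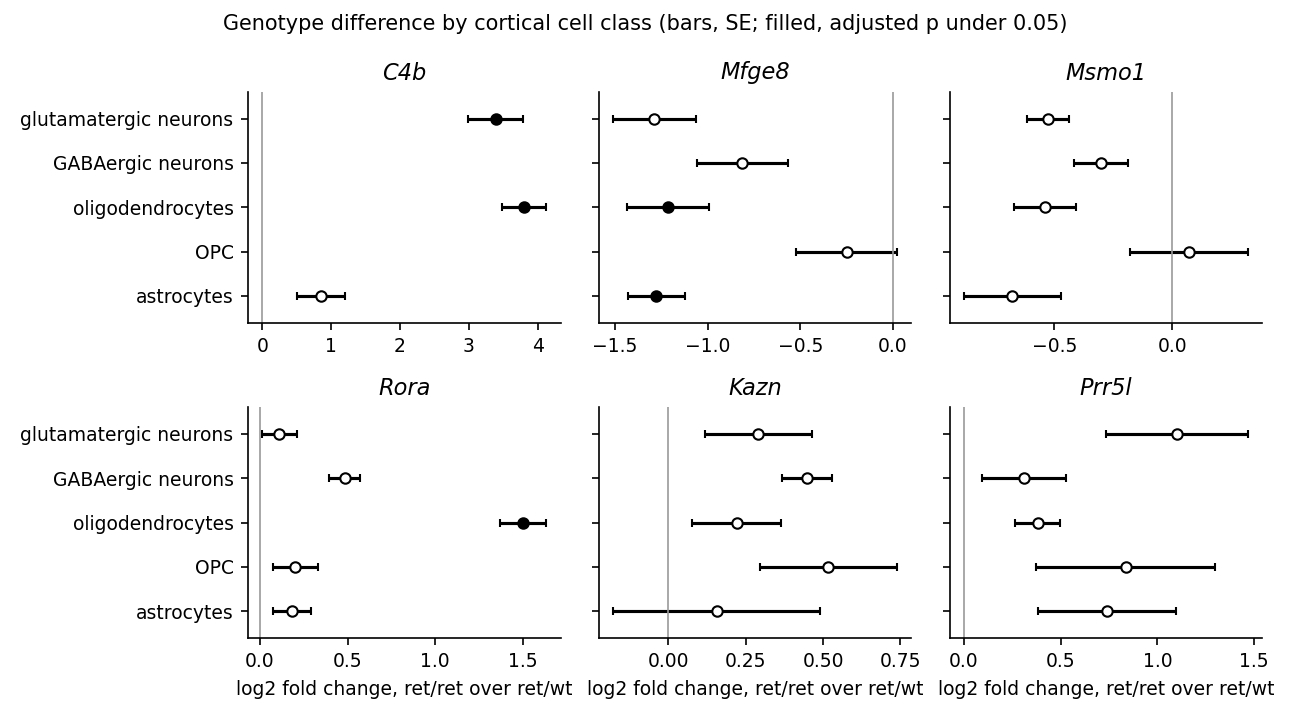
Log2 fold change of mutant over control with its SE for *C4b*, *Mfge8*, *Msmo1*, *Rora*, *Kazn* and *Prr5l* in each tested cell class, with filled points where the adjusted p is under 0.05 and no point where the gene was below the filter on low counts. *C4b* lies at 3.39 in glutamatergic neurons, where controls held few of its UMIs, 3.80 in oligodendrocytes and 0.85 in astrocytes, and *Mfge8* lies at −1.28 in astrocytes and −1.22 in oligodendrocytes.

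*Mfge8* was much lower in oligodendrocytes than in astrocytes, at 4.63 to 12.9 CPM in mutants and 19.4 to 29.6 CPM in controls, and fell there by 1.22 on the log2 scale (SE 0.22, adjusted p 0.0103). Summed astrocyte markers in the oligodendrocyte class were at 300 to 526 CPM in mutants and 376 to 566 CPM in controls, and their part in this result was not tested. In glutamatergic neurons *Mfge8* was at 1.05 to 2.03 CPM in mutants and 2.59 to 5.13 CPM in controls, a log2 fold change of −1.29 ± 0.22 with an adjusted p of 0.149, and of 0.0371 with the replicate block.

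Genes of cholesterol synthesis had values below 0 throughout the list in the sum. These enzymes, under the transcription factor SREBP2, build the sterol that brain cells make for themselves, chiefly in astrocytes and in oligodendrocytes that form myelin. In the sum all 21 members had a log2 fold change below 0, with a median of −0.27, and 1 passed, *Msmo1*, beside 0.0114% of all genes as lower. With the replicate block 6 members passed as lower, beside 0.386% of all genes, among them the enzymes *Msmo1*, *Cyp51* and *Sqle*. In astrocytes all 20 tested members lay below 0, with a median of −0.54 and 10 at an unadjusted p under 0.05, none passed, and 5 passed as lower with the block, beside 1.06% of all genes. In glutamatergic neurons all 21 lay below 0, with a median of −0.30, in GABAergic neurons 18 of 21 with −0.30, and in oligodendrocytes 19 of 20 with −0.21. No member passed in these 3 classes, and with the block 1 did as lower in glutamatergic neurons (*Msmo1*), beside 0.0181% of all genes, 2 in GABAergic neurons, beside 0.33%, and 3 in oligodendrocytes (*Msmo1*, *Fdft1* and *Sqle*), beside 1.76%. In the OPC class, mixed as given above, 13 of 19 tested members lay above 0 with the block, with a median of 0.08 and no call. In that fit the medians were −0.30 in glutamatergic neurons, −0.29 in GABAergic neurons, −0.23 in oligodendrocytes and −0.63 in astrocytes. The difference between the classes was not tested. Over all genes the median was −0.01 in the sum and within 0.01 of 0 in each class.

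Genes that interferons induce had values above 0. Of 27 members 22 were tested in the sum, all 22 had a log2 fold change above 0 with a median of 0.51, and 1 passed, *Nlrc5*, beside 0.0967% of all genes as higher. *Xaf1* and *Ifi27* passed as well with the replicate block, at 0.86 ± 0.13 and 0.58 ± 0.10 (adjusted p 0.0127 and 0.0218), beside 1.26% of all genes as higher. In oligodendrocytes 5 of 6 tested members lay above 0, with a median of 0.64 and no call (with the block *Herc6*, *Nlrc5*, *Xaf1* and *Ifi27* passed as higher), and in astrocytes all 5 tested members, with a median of 0.39 and no call. Of 13 tested genes of MHC class I presentation *Nlrc5* passed, 10 lay above 0 and the median was 0.10. With the block *H2-K1*, *H2-D1* and *H2-Q4*, heavy chains whose copies in the genome are alike so that reads can be split, passed too, beside the same 1.26%. In oligodendrocytes 1 of 7 tested members passed as higher, *H2-D1*, beside 0.641% of all genes, and 5 lay above 0.

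Interferon-activated factors bind a short motif, and the stretch around its letters is shown here for 3 members of the list that hold it and did not pass the test, *Ifit1* (0.59, adjusted p 0.607), *Ifit3* (0.54, adjusted p 0.678), which has a close copy in the genome, and *Trim30a* (0.56, adjusted p 0.537). This interferon-stimulated response element, spelled GAAA, any 2 bases and again GAAA, and searched on both strands in the 250 bases before the start site of RefSeq genes, were found for 7 of the 19 members with a promoter in the table (36.8%), against 3.02% of the 12755 tested genes with one. The windows of 60 bases come from GRCm38.p6 and run 5′ to 3′ on the strand of the gene, with the first match in capitals. The window of *Ifit1* holds a further match, left in lower case. They lie at chr19:34640760-34640819, chr19:34583348-34583407 and chr7:104465195-104465254, the last on the minus strand. Of the 19 genes that differed, 10 had a promoter in the table and none held the motif. A match describes letters and not a bound site.
Ifit1: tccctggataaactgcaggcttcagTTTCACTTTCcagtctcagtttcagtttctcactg
Ifit3: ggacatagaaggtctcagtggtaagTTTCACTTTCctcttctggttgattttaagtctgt
Trim30a: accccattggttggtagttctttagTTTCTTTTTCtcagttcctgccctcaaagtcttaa

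Myelin genes had values above 0 in the sum, and mixed signs at an equal mixture of classes and within oligodendrocytes. All 16 members of the list of myelin and mature oligodendrocytes had a log2 fold change above 0 in the sum, with a median of 0.44, and none passed. *Mobp*, a structural protein of myelin, was at 89.2, 142 and 199 CPM in mutants and 52.4, 81.2 and 94.0 CPM in controls (0.88 ± 0.20, adjusted p 0.116), and *Myrf*, the transcription factor of myelination, had a log2 fold change of 0.56 ± 0.12 (adjusted p 0.112). With the replicate block 10 members passed as higher, beside 1.26% of all genes. At an equal mixture of classes 5 of the 16 members lay above 0 and 11 below, with a median of −0.04. The share of oligodendrocytes among the nuclei was 19.1% ± 5.73 in mutants and 14.1% ± 3.00 in controls (SD, n = 6 each). Within oligodendrocytes 11 of the 16 members lay below 0, with a median of −0.11 and no call, and with the block *Gjc3* and *Mobp* passed as higher and *Aspa* as lower, beside 2.63% and 1.76% of all genes. Of the 14 tested genes of oligodendrocyte precursors and committed cells none passed in the sum, 11 lay above 0 and the median was 0.10, and *Bcas1*, *Enpp6* and *Tcf7l2*, genes of newly formed oligodendrocytes, passed as higher with the block, beside the same 1.26%.

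Genes of reactive astrocytes gave 1 call in the sum, *C4b*, among 19 tested, beside 0.0967% of all genes as higher, with 15 above 0 and a median of 0.20. *Gfap* had a log2 fold change of 1.26 ± 0.23 with an adjusted p of 0.0526, and of 1.17 ± 0.22 with 0.0276 under the replicate block, where *C4b*, *Gfap* and *H2-D1* passed as higher among 20 tested, beside 1.26% of all genes. Within astrocytes all 6 tested members lay above 0, with a median of 0.53, and *Gfap* passed as higher, beside 0.753% of all genes. Genes of astrocyte identity and of glutamate, potassium and water handling had a median of −0.01 over 19 members in the sum, with *Mfge8* as the only call, lower beside 0.0114% of all genes, and of −0.07 within astrocytes, where *Slc4a4* passed as higher and *Mfge8* as lower, beside 0.753% and 0.479% of all genes.

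**Figure D4:**
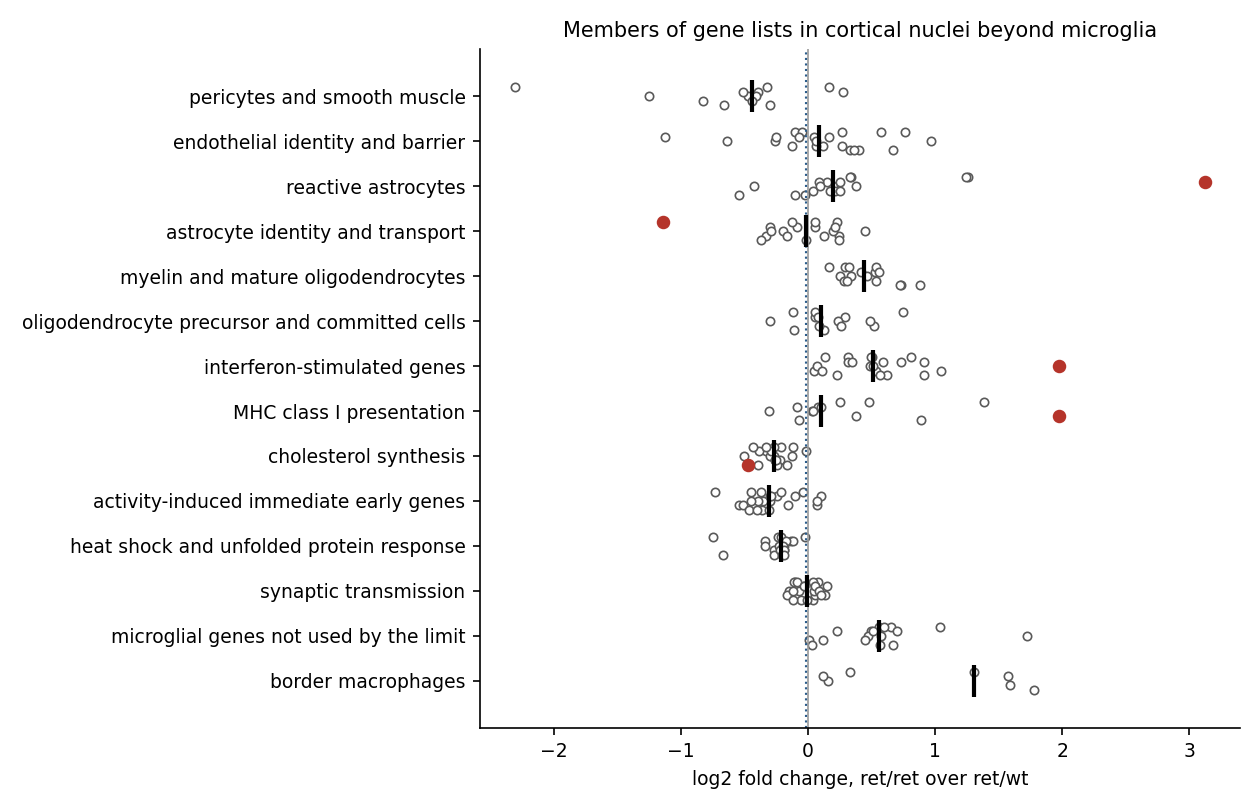
Log2 fold changes of mutant over control in the summed cortical nuclei for the tested members of 14 gene lists, 1 point per gene, with genes past an adjusted p of 0.05 in red, a black line at the median of the list and a dotted line at the median of all genes. All 21 cholesterol genes lie below 0 and all 22 interferon-stimulated and all 16 myelin genes above it, and 1 gene in the first list, 1 in the second and none in the third is past the threshold.

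Genes of neuronal activity and of protein folding had mostly values below 0. Of 23 immediate early genes, which neurons switch on with activity, 20 lay below 0, with a median of −0.30 and no call in the sum. *Dusp1*, a phosphatase of MAP kinases, was at 16.2, 24.3 and 33.2 CPM in mutants and 28.0, 34.5 and 47.3 CPM in controls (−0.54 ± 0.17, adjusted p 0.287). In glutamatergic neurons 20 of 23 lay below 0 with a median of −0.30, in GABAergic neurons 20 of 23 with −0.37, and in oligodendrocytes 12 of 13 with −0.57 and 1 call, *Vgf*, which was lower, beside 0.207% of all genes. With the block *Vgf* passed as lower in the sum too, beside 0.386%, *Fos* in GABAergic neurons, beside 0.33%, and *Nr4a2* in astrocytes, beside 1.06%. In oligodendrocytes *Jun*, *Vgf* and *Junb* passed as lower with the block, beside 1.76%. All 20 genes of heat shock and the unfolded protein response lay below 0 with a median of −0.21, and none passed in the sum with or without the block. Within classes *Hsph1* and *Hspa8* in oligodendrocytes and *Hspa5* in astrocytes passed as lower with the block, beside 1.76% and 1.06% of all genes.

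The lists for synapses and excitability had medians near that of all genes. Over 23 genes of synaptic transmission the median was −0.01, with values from −0.16 to 0.15 and no call, and over 22 voltage-gated ion channels it was 0.03, with no call and with *Hcn2* higher under the block, beside 1.26% of all genes. In oligodendrocytes, among 21 tested channel genes, *Cacna1a* and *Kcnd2* passed as higher and *Kcna1* as lower, beside 0.641% and 0.207% of all genes. In astrocytes *Hcn2* passed as higher and *Kcnd2* as lower among 17 channel genes, and *Grin1* as lower among 21 synaptic genes, beside 0.753% and 0.479% of all genes. No member passed among 21 tested genes of hypoxia and glycolysis (median −0.06), 15 of the glucocorticoid response (0.21), 17 of the circadian clock (−0.06), 13 of iron handling (0.05) and 13 encoded by mitochondria (0.20). The median of the mitochondrial genes was −0.17 among mice 1 to 3 and 0.74 among mice 4 to 6. With the block *Trf*, the iron carrier transferrin that oligodendrocytes make, passed as higher in the list of iron genes, beside 1.26% of all genes. The lists for hippocampal, cortical layer, striatal, and thalamic and midbrain neurons gave no call, with medians of −0.02, 0.02, −0.03 and 0.21. The list for choroid plexus, ependyma and leptomeninges gave none either, with a median of −0.09. With the block *Lamp5* of the layer neurons and *Slc22a6* of the leptomeninges passed as lower, beside 0.386%, and *Tcf7l2* of the thalamic list as higher, beside 1.26%.

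Genes on the lists for immune cells had values above 0. Of 18 microglial genes that the limit did not use, 17 were tested, all lay above 0 with a median of 0.56 and none passed. Their summed level was 58.5 to 144 CPM in mutants, with the highest value in mutant 1, and 52.0 to 84.7 CPM in controls. Border macrophage genes were summed to 5.42 to 34.3 CPM in mutants, the highest in mutant 2, and 4.59 to 8.81 CPM in controls, and all 7 tested members lay above 0 with a median of 1.31. The 5 tested genes of T and B lymphocytes lay above 0 with a median of 0.40. These medians moved widely with the settings, from 0.19 to 1.03 for the microglial list, 0.08 to 2.04 for border macrophages and 0.20 to 1.503 for lymphocytes. No member of the 3 lists passed, and with the block *Ptprc* and *Apbb1ip* of the microglial list did as higher, beside 1.26% of all genes. *Apbb1ip* also passed as higher with the block within oligodendrocytes, beside 2.63% of all genes, so its level in the sum is not microglial alone. The lymphocyte list shares *Bcl11b* with the list of cortical layer neurons. The part of immune cells in the higher interferon and MHC genes was not tested beyond the microglial limit. Without that limit *C4b* had a log2 fold change of 3.07 and *Nlrc5* one of 2.22, beside 1.92 when 3 UMIs were enough to drop a nucleus.

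**Figure D5:**
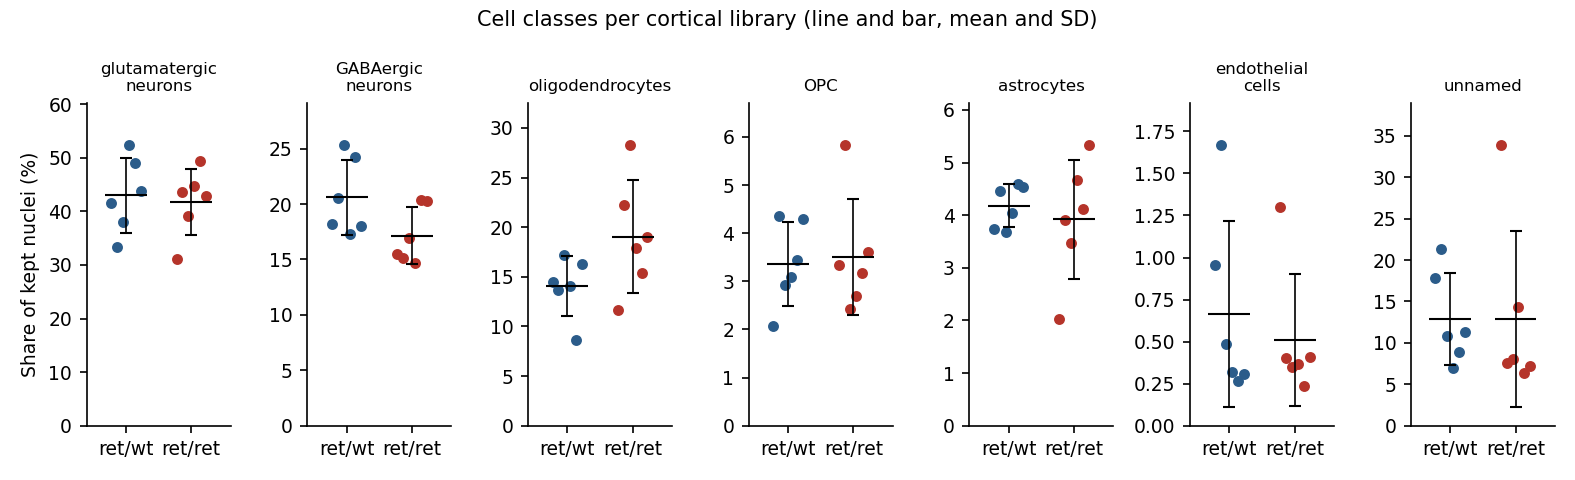
Share of kept cortical nuclei in each class, in percent, 1 point per library with the mean and SD of the 6 mutants and 6 controls. The genotypes overlap in every class, and the oligodendrocyte share spans 11.7% to 28.2% in mutants and 8.63% to 17.2% in controls.

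No class changed its share past the threshold. Glutamatergic neurons made up 41.8% ± 6.18 of nuclei in mutants and 43.0% ± 6.98 in controls (SD, n = 6 each), GABAergic neurons 17.2% ± 2.57 and 20.6% ± 3.42, OPCs 3.51% ± 1.21 and 3.36% ± 0.870, astrocytes 3.92% ± 1.13 and 4.18% ± 0.410, and endothelial cells 0.509% ± 0.392 and 0.666% ± 0.553. In an exact permutation test (two-sided, over every split of the 12 libraries, with 0.00216 as the smallest p it can give), the difference of 5.0 percentage points for oligodendrocytes had a p of 0.0866 and that of −3.45 for GABAergic neurons a p of 0.0758, both 0.260 after adjustment over the 6 classes. The other 4 classes had p of 0.610 to 0.823. Between same-numbered mice, the share of cortical nuclei that are oligodendrocytes was higher in the mutant in 5 of 6 pairs, all but pair 1, and the share of cortical nuclei that are GABAergic neurons was lower in 5 of 6, all but pair 6. An exact sign-flip permutation test over these pairs (two-sided, 64 flips) gave an adjusted p of 0.281 for each and of 0.812 for the other 4. Shares are of nuclei that passed the UMI limit, not of the tissue, and the GABAergic share includes striatal neurons.

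In the deep brain of the same mice, treated in the same way, 175 of 20798 genes passed (0.841%), 89 higher (0.428%) and 86 lower (0.414%). Of the 19 cortical genes 4 passed there, *Gm28322*, *C4b*, *Pkd2l1* and *Nlrc5*, and all 19 had the same sign, in mice that gave both tissues. The count was 55 without mutant 1, 10 without mutant 2, 27 without mutant 3, 305 without mutant 4, 54 without mutant 5, 16 without control 1, 309 without control 3, 35 without control 4, 17 without control 5 and 95 without control 6. *C4b* in the deep brain was at 8.23, 12.0 and 17.5 CPM in mutants and 4.08, 4.86 and 6.15 CPM in controls (1.34 ± 0.17, adjusted p 0.00858). *Mfge8* there had a log2 fold change of −0.36 ± 0.15 (adjusted p 0.305) and *Msmo1* one of −0.09 ± 0.12 (adjusted p 0.817). Whether the effect differed between the regions was tested within mice, and none of the 19 passed after adjustment. All 19 differences had the sign of the cortical effect, and 18 had an unadjusted p under 0.05, beside 2302 of 22540 genes tested. The 19 had been chosen by their cortical values. For *C4b* the cortical log2 fold change exceeded that of the deep brain by 1.64 ± 0.32 (adjusted p 0.0530), and for *Mfge8* the difference was −0.81 ± 0.26 (adjusted p 0.217).

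Over all genes that test of the difference passed 31 of 22540 (0.138%), 22 with a more positive effect in the cortex (0.0976%) and 9 with a more negative one (0.0399%). The 5 genes with the smallest p were *Gm13306*, *Satb1*, *Peg10*, *Mfsd4a* and *Sec1*, each with an adjusted p of 0.0324. *Satb1*, a chromatin organiser of neurons, was at 86.3 to 97.5 CPM in cortical mutants and 68.0 to 108 CPM in cortical controls (0.10 ± 0.10), and at 24.4 to 37.0 CPM against 37.0 to 64.3 CPM in the deep brain, where it fell (−0.76 ± 0.14, adjusted p 0.0299). *Gm13306* and *Sec1* likewise fell in the deep brain (−1.14 ± 0.16 and −1.15 ± 0.20) and had cortical values of −0.10 ± 0.13 and 0.25 ± 0.15. *Peg10*, an imprinted gene derived from a retrotransposon, had −0.91 ± 0.23 in the cortex and 0.47 ± 0.14 in the deep brain, neither past the threshold. No gene passed this test when mutant 1, 2 or 3 or control 1 or 5 was left out, 1 passed without mutant 5, 12 without mutant 6, 16 without control 3, 48 without control 2, 60 without control 4, 61 without control 6 and 188 without mutant 4.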

How the data were processed

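Single-nucleus RNA sequencing counted UMIs per gene in cortical and deep brain nuclei of 12 mice. The authors aligned reads of the 5′ kit to mm10 with intronic reads included, using Cell Ranger 5.0.1 per the submitters' processing notes, and deposited raw counts per barcode. Counts of kept nuclei were summed per library. The UMI and microglial limits and the choice of members, lists and cluster names were made with earlier results of these data known. Genes were filtered by edgeR's filterByExpr and tested with glmQLFit and glmQLFTest (edgeR 4.0.16, R 4.3.3). Printed CPM are counts over TMM effective library sizes. Clusters came from scanpy 1.11.5 (2000 variable genes, 30 components, resolution 0.3) and were named by a rule written after they were seen; doublets were kept in the fit and removed in an alternative. The regional difference was fitted with the mouse as a block. Named genes were *Pdgfb*, *Pdgfrb*, all called genes of the sum, 3 per direction with the smallest p in each class, called list members or else up to 2 with the smallest p, and 5 genes of the regional test; others are said to be picked after their values were seen, or passed only with the block. Mice of 1 number had the same age (1 to 4) or differed by days (5 and 6). Over 10151 genes the deviations of same-numbered mutant and control cortices from their group means correlated at 0.468, 0.191, 0.580, 0.189, 0.846 and 0.493 for mice 1 to 6. The replicate block and the sign-flip test therefore took the numbers as pairs, although mutants 2, 4 and 6 correlated best with another number. The labels do not call them pairs, and the main cortical fits used no pairing. The scripts were tested on simulated data. Alternatives were DESeq2 1.42.0, other limits, the blocks and leaving out each library. Results of some list members are not reported here.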

Additional observations from a re-analysis of the deposited data

Results flagged for a closer look

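Of 114 groups of 6 libraries examined for a single far value, 6 held one, and chance alone gives about 1 in 20. Control 5 gave 9518 kept nuclei, far above the other controls. Mutant 2 had an OPC share of 5.82% and a summed border macrophage level of 34.3 CPM, each far above the other mutants. Mutant 1 had an endothelial share of 1.3% and a share of nuclei without a class name of 33.8%. Control 6, the male, stood at 294.6 CPM for the summed genes of the X-inactivation centre and the Y chromosome.

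Of the 31 genes whose genotype effect differed between cortex and deep brain by the interaction test of edgeR, the 5 with the smallest p had an adjusted p of 0.0324 each, and each lost its call in 6 of the 12 fits that left out 1 mouse. The cortical log2 fold change exceeded that of the deep brain by 1.04 for *Gm13306*, 0.87 for *Satb1*, 0.43 for *Mfsd4a* and 1.40 for *Sec1*, and for *Peg10* the difference was −1.32.

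Features of vector sequences, which no comparison used, held up to 37 UMIs in a cortical library and 106 over the 12, with 8 libraries above 3 UMIs.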

How the results depend on the processing

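For the sum of cortical nuclei, where 19 genes passed, 224 passed by DESeq2, 307 with the replicate block, 128 with mice of equal age as blocks, 32 without doublets, 11 (5 higher, 6 lower) at an equal mixture of classes, 86 (41 higher, 45 lower) for mice 1 to 3, 0 for mice 4 to 6 (478 at an unadjusted p under 0.05), 12 at a minimum of 1000 UMIs, 0 at 4000 UMIs (1329 unadjusted), 7 with no minimum, 37 without the filter on low counts, 33 without the microglial limit and 8 for thinned nuclei. Chosen after seeing the data, named classes alone gave 10 and the 9 libraries of low yield 12. Leaving out 1 library gave 5 to 33 in the sum, 10 to 309 in the deep brain, 0 to 188 for the regional difference, 0 to 1 in glutamatergic and 0 to 1 in GABAergic neurons, 42 to 153 in oligodendrocytes, 0 to 2 in OPCs and 56 to 140 in astrocytes. DESeq2 gave 757 in the deep brain, 448 for the regional difference, 10, 34, 168 and 2 in glutamatergic neurons, GABAergic neurons, oligodendrocytes and OPCs. The replicate block gave 383 in the deep brain, where same-numbered mice correlated at −0.239 to 0.528 and were not taken as pairs, and 9, 120, 491, 1 and 223 in the 5 classes, astrocytes last. Without the filter on low counts the regional difference gave 91, GABAergic neurons 1, oligodendrocytes 204, OPCs 10 and astrocytes 204. The causes were not tested. Of 835 alternative values of named genes 593 kept their call, 242 lost it and 0 reversed. Of 870 alternative medians of gene lists 838 moved by less than 1 SD of the list between libraries and 32 by more. Those of mitochondrial genes ran from −0.17 (mice 1 to 3) to 0.74 (mice 4 to 6), of striatal genes from −0.30 to 0.26 (the same settings), of thalamic genes from −0.20 (equal mixture) to 0.34 and of myelin genes from −0.04 (equal mixture) to 0.67. No class share passed its test under any alternative run.

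Limits are the shallow cortical libraries, of which the UMI limit removed up to 85.0% of nuclei, 6 mice per genotype, 1 male control, and controls that carry the allele. Endothelial cells were too few to test. Names of classes were rebuilt from clusters.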
